A study of Mus musculus with 9 samples.

Results

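The alpha and beta tubulin isotypes of mouse embryonic fibroblasts that overexpress Zscan4f or its variant Zscan4f3A are described here. They comprise 10 genes of 54986 in the deposited tables, namely the alpha isotypes Tuba1a, Tuba1b and Tuba1c and the beta isotypes Tubb2a, Tubb2b, Tubb3, Tubb4a, Tubb4b, Tubb5 and Tubb6. The genes were selected by name, and they were chosen from a wider set with their TPM values (transcript abundance scaled by length and by library) in these libraries already known. Levels and differences of these 10 genes are therefore given as a description, and no test is claimed for them.

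Alpha and beta tubulin form the heterodimer that polymerises into microtubules, and each exists as several isotypes encoded by separate genes. The isotypes are nearly alike over most of their length and diverge at the acidic tail at the end of the protein, where most of the modifying enzymes act and many microtubule-binding proteins attach. Fibroblasts rely on microtubules for polarity, transport and the mitotic spindle, and free tubulin dimer triggers decay of tubulin mRNA while it is being translated, a feedback termed autoregulation. Tubb3 is widely used as a neuronal marker but is also found in cultured fibroblasts, and Tubb4a is known for its abundance in brain and in oligodendrocytes.

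Total RNA was sequenced from 9 libraries of primary fibroblasts of the C57BL/6 strain. There were 3 libraries with overexpressed Zscan4f, 3 with overexpressed Zscan4f3A and 3 control libraries whose titles name no overexpressed gene. All 9, control included, carry the label D4-OSKM-2ndMEFs, so every group shares whatever OSKM treatment that label stands for. The labels do not explain D4, the vector or how Zscan4f3A differs from Zscan4f. Changes against control may include effects of overexpression as such. The labels give no separate cultures for the replicates, so p-values and SDs measure only the spread between these libraries, which may be technical. The Zscan4f gene itself, read as a check of the labels, stood at 570, 565 and 558 TPM in Zscan4f libraries, at 827, 836 and 654 TPM in Zscan4f3A libraries and at 0.330, 0 and 0.960 TPM in control libraries.

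The aligned sequence behind a library was estimated at 6.60 to 8.39 gigabases in 8 libraries and at 3.31 gigabases in Zscan4f3A replicate 3, which stood apart. The tables hold no read counts. They give a coverage value per gene, which was used here only for this estimate, so the depth behind single genes was not examined. All 12 fibroblast markers passed the filter on low values, and they summed to 15822 to 16029 TPM in Zscan4f, 15783 to 16241 TPM in Zscan4f3A and 15987 to 16088 TPM in control libraries. Within that sum single markers differed, with 3 of the 12 called higher and 6 lower in Zscan4f against control by limma and a median log2 difference of -0.11. Over all genes tested, 8.74% were called higher and 9.71% lower in that comparison.

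The isotypes differ in how well short reads can tell them apart, which sets what each value can mean. The last 63 coding bases, which encode the end of the protein, are shown for the closest beta pair, from GENCODE transcripts on GRCm38. Capitals mark the bases that differ from the partner.
Tubb2a: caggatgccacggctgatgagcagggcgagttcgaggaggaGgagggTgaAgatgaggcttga
Tubb2b: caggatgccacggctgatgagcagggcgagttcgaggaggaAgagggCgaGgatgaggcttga

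Tubb2a and Tubb2b differed at 3 of these 63 bases and at 47 over the whole coding sequence, an identity of 96.5%. Read in frame, the 3 marked differences leave the encoded residues unchanged, so this stretch encodes the same tail in both. The coding sequences of the alpha isotypes were closer still, with Tuba1a and Tuba1b 98.3% identical. Tubb4a and Tubb4b were 83.2% identical, and all pairs of beta isotypes other than Tubb2a with Tubb2b lay between 80.2% and 85.9%. In the tails of Tubb4a and Tubb4b the marked bases also leave the encoded residues unchanged, apart from an additional GAG codon in Tubb4b. These tails read as follows, with capitals again marking differences from the partner in an alignment of the coding sequences.
Tubb4a: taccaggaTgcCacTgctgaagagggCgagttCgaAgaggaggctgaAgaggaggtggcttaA
Tubb4b: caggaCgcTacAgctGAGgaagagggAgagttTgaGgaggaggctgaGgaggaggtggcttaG

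The share of a transcript's 50-base words that also occur in transcripts of other genes was 0% for Tubb3 and Tubb6, 0.12% for Tubb5 and 0.18% for Tubb4a. It was 39.3% for Tubb2b, 49.6% for Tubb2a and 55.5% for Tubb4b, and 61.0% for Tuba1c, 75.5% for Tuba1a and 83.1% for Tuba1b. Tubb4b shared none of its words with the other isotypes but many with processed pseudogenes. Values of the 4 isotypes with almost unique sequence are little affected by shared words, although Tubb3 overlaps another annotated locus (described with it), while those of the alpha isotypes, of Tubb2a with Tubb2b and of Tubb4b depend on how reads of common sequence were divided and are uncertain to that extent.

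All 10 isotypes were expressed in every library. In control libraries Tuba1a led the alpha isotypes and Tubb5, the broadly expressed beta isotype, led the beta isotypes. TPM is scaled by transcript length, so levels can be compared between genes. By mean TPM in control the order was Tuba1a at 681 ± 15.2, Tubb5 at 565 ± 8.40, Tubb2a at 412 ± 11.0, Tuba1b at 366 ± 9.87, Tubb4b at 236 ± 5.62, Tubb2b at 173 ± 9.31, Tuba1c at 169 ± 6.34, Tubb3 at 129 ± 2.69, Tubb6 at 105 ± 2.24 and Tubb4a at 9.37 ± 1.14 (SD, n = 3). Only Tubb2b and Tuba1c, neighbours in this order, had overlapping control libraries. All 10 genes passed the filter in each group, so none entered through the group where it was high.

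With Zscan4f, every isotype was higher than in control, and for each of the 10 the 3 Zscan4f libraries lay above all 3 control libraries. The share of all genes that separate in this way was not computed, so nothing is read from that count. By limma, 4923 of the 15837 genes tested had an unadjusted p under 0.05 in this comparison. The differences were small for 9 of the 10 isotypes, from 1.07-fold for Tubb6 to 1.24-fold for Tubb3 on the scale of TPM + 1, and 2.20-fold for Tubb4a. With Zscan4f3A the 10 isotypes stood close to control, at 0.897-fold to 1.11-fold. The alpha isotypes summed to 1389, 1454 and 1442 TPM with Zscan4f, to 1227, 1198 and 1052 TPM with Zscan4f3A and to 1210, 1248 and 1190 TPM in control. The beta isotypes summed to 1864, 1902 and 1899 TPM with Zscan4f, to 1667, 1660 and 1625 TPM with Zscan4f3A and to 1626, 1667 and 1594 TPM in control. Both sums were highest in the 3 Zscan4f libraries, and the ratio of group means to control was 1.17 for alpha and 1.16 for beta tubulin. Together the 10 genes made up 0.332% ± 0.00560 of all TPM with Zscan4f, 0.281% ± 0.0116 with Zscan4f3A and 0.285% ± 0.00655 in control (SD, n = 3 each).

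**Figure D1:**
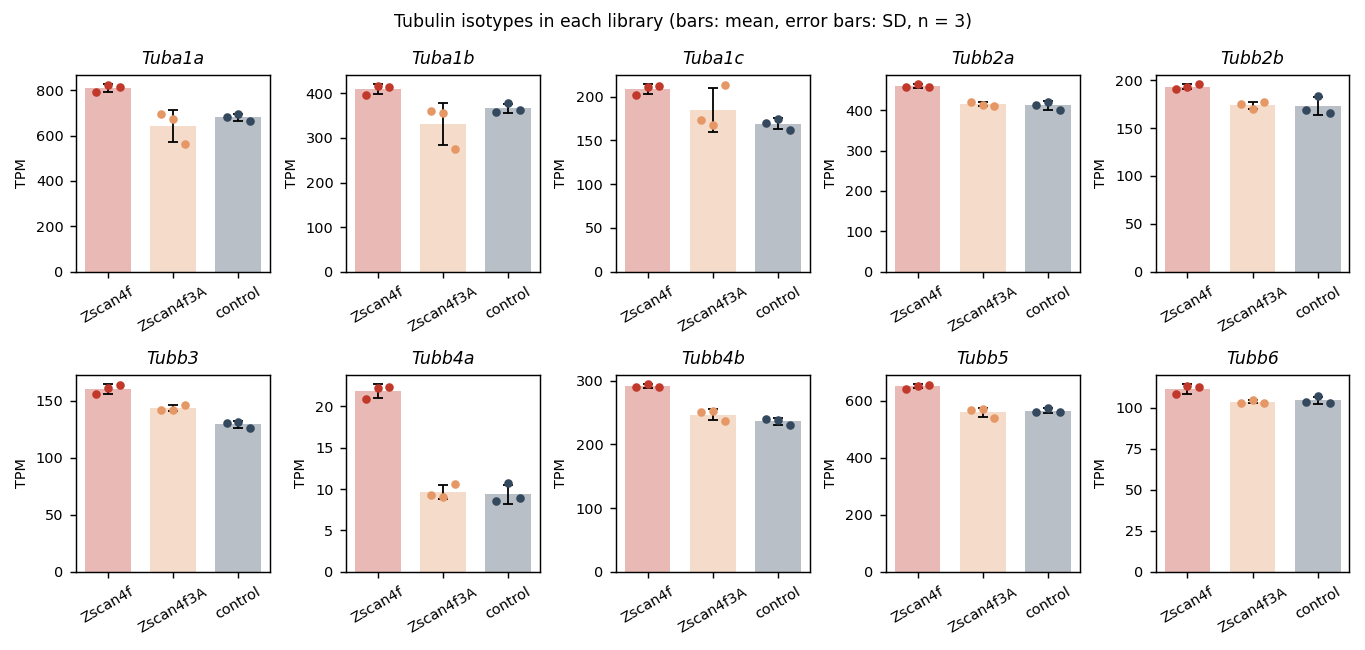
TPM of the 10 tubulin isotypes in each library; points are libraries, bars the mean and error bars the SD of 3 libraries per group, with the Zscan4f group on the left, then Zscan4f3A and control, and each panel has its own scale from 0. The 3 Zscan4f libraries lie above the 3 control libraries in every panel, and Tubb4a at 21.8 against 9.37 TPM has the widest gap for its level.

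In the fit of all 15837 genes that had at least 1 TPM in at least 3 libraries (limma on log2(TPM + 1), Benjamini-Hochberg adjusted p under 0.05), 8 of the 10 isotypes were called higher in Zscan4f than in control and 0 lower. Tubb6 and Tuba1b were not called. Of all genes tested 18.5% were called in this comparison, 8.74% higher and 9.71% lower. In Zscan4f against Zscan4f3A 7 of the 10 were called higher and 0 lower, against 15.1% of all genes, 7.48% higher and 7.64% lower, and Tubb6, Tuba1b and Tuba1c were not called. In Zscan4f3A against control 0 isotypes were called in the limma fit, against 0.0316% of all genes, and only Tubb3 had an unadjusted p under 0.05 among them, at an adjusted p of 0.34 from limma. The members were chosen with these comparisons known, so nothing is read from these counts. The median log2 difference of the 10 isotypes was 0.23 in Zscan4f against control, 0.01 in Zscan4f3A against control and 0.20 in Zscan4f against Zscan4f3A, beside medians over all genes of -0.0029, -0.012 and 0.0021. The 2 comparisons with Zscan4f share its 3 libraries and the 2 against control share the control libraries, so they are not independent of each other. In Zscan4f against control the count fell to 5 of 10 when any 1 of control replicates 1 and 3 or Zscan4f replicates 1, 2 and 3 was left out, and in Zscan4f against Zscan4f3A it fell to 4 without Zscan4f replicate 2. Tubb2a, Tubb3, Tubb4a, Tubb4b and Tubb5 were called against control under all 18 alternative settings.

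**Figure D2:**
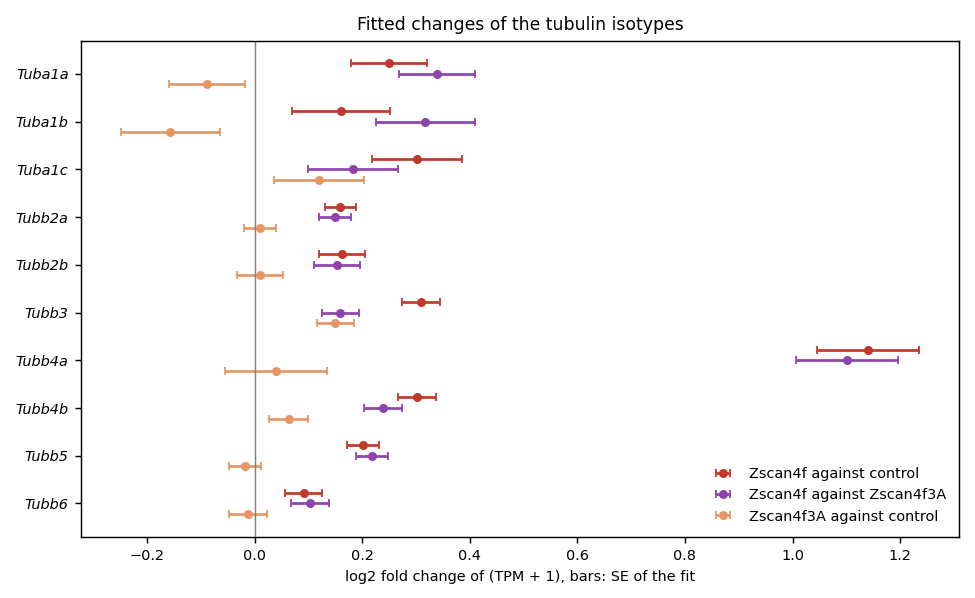
Fitted log2 difference of (TPM + 1) for each isotype in Zscan4f against control, Zscan4f against Zscan4f3A and Zscan4f3A against control; points are estimates and bars their SE from the fit of 9 libraries. Both comparisons of Zscan4f lie right of 0 for all 10 isotypes, with Tubb4a at 1.14 and 1.10, while Zscan4f3A against control lies within 0.16 of 0.

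Among beta isotypes Tubb4a, on chromosome 17 at 57080066 to 57087782 (minus strand, ENSMUSG00000062591.5), stood apart. It had 20.8, 22.2 and 22.3 TPM in Zscan4f libraries, 9.22, 9.04 and 10.7 TPM in Zscan4f3A libraries and 8.53, 10.7 and 8.91 TPM in control libraries. The Zscan4f libraries were all high and the other 6 overlapped. The log2 difference was 1.14 (SE 0.10) against control and 1.10 (SE 0.10) against Zscan4f3A. Tubb4a was 1.15% ± 0.0321 of all beta tubulin TPM with Zscan4f, 0.584% ± 0.0617 with Zscan4f3A and 0.574% ± 0.0595 in control (SD, n = 3 each), and it was the rarest of the 7 beta isotypes in each group.

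Tubb3, the isotype used to mark neurons (chromosome 8, 123411424 to 123422015, plus strand, ENSMUSG00000062380.4), was graded over the groups. It had 156, 161 and 164 TPM in Zscan4f libraries, 142, 142 and 147 TPM in Zscan4f3A libraries and 130, 131 and 126 TPM in control libraries, and no group overlapped another. The log2 difference was 0.31 (SE 0.03) in Zscan4f against control, 0.15 (SE 0.03) in Zscan4f3A against control and 0.16 (SE 0.03) in Zscan4f against Zscan4f3A. Tubb3 was the only isotype whose Zscan4f3A libraries all lay above control, with no call in that comparison. The annotated locus AC114005.5 overlaps Tubb3 on the same strand, and it had 0, 0 and 1.14 TPM in Zscan4f, 0, 7.19 and 27.8 TPM in Zscan4f3A and 0, 0.222 and 0.373 TPM in control libraries. Counted together, the 2 loci would put Zscan4f3A replicate 3 above every Zscan4f library, so the grading holds only for Tubb3 as quantified alone. How reads were divided between the 2 loci was not tested.

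Tubb5 (chromosome 17, 35833921 to 35838306, minus strand, ENSMUSG00000001525.10), the most abundant beta isotype, had 642, 653 and 656 TPM in Zscan4f libraries, 567, 569 and 541 TPM in Zscan4f3A libraries and 560, 575 and 561 TPM in control libraries. Zscan4f was above both other groups, which overlapped, and the log2 difference against control was 0.20 (SE 0.03). Tubb5 supplied 84.9 TPM of the beta difference between the Zscan4f and control means, more than any other beta isotype. It still held 34.4% ± 0.110 of beta tubulin TPM with Zscan4f, 33.8% ± 0.523 with Zscan4f3A and 34.7% ± 0.420 in control (SD, n = 3 each), shares that overlap between Zscan4f and control.

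Tubb4b (chromosome 2, 25222160 to 25224702, minus strand, ENSMUSG00000036752.4), a broadly expressed isotype that is also abundant in cilia, had 290, 294 and 289 TPM in Zscan4f libraries, 251, 252 and 236 TPM in Zscan4f3A libraries and 240, 238 and 230 TPM in control libraries. Its log2 difference of 0.30 (SE 0.04) in Zscan4f against control and of 0.24 (SE 0.04) against Zscan4f3A left no overlap between Zscan4f and either other group. Unlike Tubb3, its Zscan4f3A and control libraries overlapped, but only through Zscan4f3A replicate 3 at 236 TPM. In that library the pseudogene Tubb4b-ps1, which shares 43.6% of the 50-base words of Tubb4b, had 22.6 TPM. It had 6.38 and 4.98 TPM in the other Zscan4f3A libraries. The contrast with Tubb3 thus rests on 1 library, and how its reads were divided between Tubb4b and the pseudogene was not tested.

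The neighbouring pair Tubb2a (chromosome 13, 34074274 to 34078007, minus strand, ENSMUSG00000058672.7) and Tubb2b (chromosome 13, 34126748 to 34130466, minus strand, ENSMUSG00000045136.6) moved most alike of all isotypes. Tubb2a had 457, 465 and 458 TPM with Zscan4f, 420, 413 and 411 TPM with Zscan4f3A and 414, 422 and 399.9 TPM in control. Tubb2b had 190.3, 193 and 196 TPM with Zscan4f, 175, 169 and 177 TPM with Zscan4f3A and 169, 183 and 166 TPM in control. For both genes the Zscan4f libraries were highest and the other groups overlapped, with a log2 difference of 0.16 against control (SE 0.03 for Tubb2a, 0.04 for Tubb2b). Their centred log2 values differed by a root mean square of 0.030 over the 9 libraries, the smallest among pairs of isotypes, and the words they share limit how far this can be read as 2 separate measurements. Tubb6 (ENSMUSG00000001473.6), the remaining beta isotype, changed least, with 108, 113 and 113 TPM in Zscan4f, 103, 105 and 103 TPM in Zscan4f3A and 104, 107 and 103 TPM in control libraries. Its log2 difference against control was 0.09 (SE 0.03), and its lowest Zscan4f library lay 1.00 TPM above the highest control library.

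Among alpha isotypes, 1 library set much of the spread. Tuba1a (chromosome 15, 98949837 to 98953703, minus strand, ENSMUSG00000072235.6) had 791, 825 and 815 TPM in Zscan4f libraries, 694, 674 and 562 TPM in Zscan4f3A libraries and 681, 696 and 666 TPM in control libraries. Tuba1b (chromosome 15, 98931425 to 98934565, minus strand, ENSMUSG00000023004.8) had 396, 418 and 415 TPM with Zscan4f, 360, 356 and 276 TPM with Zscan4f3A and 359, 378 and 363 TPM in control. Tuba1c (chromosome 15, 99029891 to 99038110, plus strand, ENSMUSG00000043091.9) had 202, 211 and 213 TPM with Zscan4f, 173, 168 and 214 TPM with Zscan4f3A and 170.4, 175 and 162 TPM in control. In the Zscan4f libraries all 3 genes were above control. Zscan4f3A replicate 3 was the lowest of all 9 libraries for Tuba1a and Tuba1b and the highest for Tuba1c.

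The log2 difference in Zscan4f against control was 0.25 (SE 0.07) for Tuba1a, 0.16 (SE 0.09) for Tuba1b and 0.30 (SE 0.08) for Tuba1c. The ratio of Tuba1c to Tuba1a TPM was 0.380 in Zscan4f3A replicate 3, against 0.249 in both other Zscan4f3A libraries, 0.255 to 0.261 in Zscan4f and 0.243 to 0.251 in control libraries. Without that library the fit gave an adjusted p of 0.0095 for Tuba1b in Zscan4f against control, against 0.28 with it, and called Tuba1b and Tuba1c in Zscan4f against Zscan4f3A as well, while Tubb2b was no longer called in that comparison (adjusted p = 0.060).

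**Figure D3:**
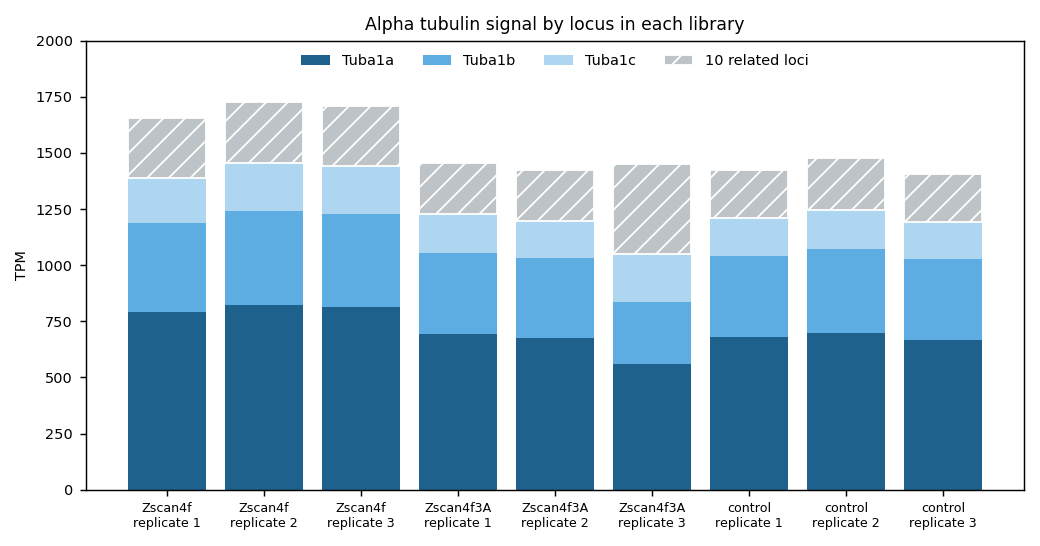
Summed TPM of Tuba1a, Tuba1b, Tuba1c and 10 related loci (hatched) in each library, from Zscan4f on the left through Zscan4f3A to control; the bars start at 0. In Zscan4f3A replicate 3 the related loci reach 397 TPM and the 3 isotypes 1052 TPM, and the full bar of 1449 TPM is level with the other Zscan4f3A and control bars.

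The same library stood out at loci that share sequence with tubulin. There were 10 loci that shared at least 100 words of 50 bases with a transcript of an alpha isotype, 8 of them processed pseudogenes. They summed to 269, 272 and 268 TPM with Zscan4f, to 230.4, 226 and 397 TPM with Zscan4f3A and to 215, 230.1 and 216 TPM in control. The pseudogene Gm17383 alone had 97.8 TPM in Zscan4f3A replicate 3 and 34.1 to 44.7 TPM in the other 8 libraries. Slc7a11, also among the 10 loci, is a protein-coding gene that shares 159 words, and its own expression is part of the sum. It had 8.74 to 9.59 TPM with Zscan4f, 7.57 to 8.58 TPM with Zscan4f3A and 7.43 to 8.09 TPM in control. With the 10 loci added, the alpha isotypes summed to 1658, 1726 and 1710 TPM with Zscan4f, 1457, 1424 and 1449 TPM with Zscan4f3A and 1426, 1478 and 1406 TPM in control. On this sum Zscan4f3A replicate 3 lay between the other Zscan4f3A libraries, and the ratio of Zscan4f to control was 1.18. Depth was also lowest in that library, and its part in the division of reads among related loci was not tested. RP23-278C10.11, which spans Tuba1b and Tuba1a on the same strand and is among the 10 loci, had 85.8, 86.2 and 87.3 TPM with Zscan4f, 67.6, 72.6 and 81.7 TPM with Zscan4f3A and 69.0, 67.4 and 60.3 TPM in control.

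The isotype mix of alpha tubulin differed little in size between Zscan4f and control, though the share of each isotype had no overlap between these 2 groups. Tuba1a held 56.7% ± 0.218 of alpha tubulin TPM with Zscan4f, 55.4% ± 1.71 with Zscan4f3A and 56.0% ± 0.261 in control, Tuba1b held 28.7% ± 0.117 with Zscan4f, 28.5% ± 1.92 with Zscan4f3A and 30.1% ± 0.430 in control, and Tuba1c held 14.6% ± 0.122 with Zscan4f, 16.1% ± 3.62 with Zscan4f3A and 13.9% ± 0.246 in control (SD, n = 3 each). The ratio of beta to alpha TPM was 1.32 ± 0.0175 with Zscan4f, 1.43 ± 0.101 with Zscan4f3A and 1.34 ± 0.00392 in control, so that the alpha and the beta part of the dimer were both higher with Zscan4f by similar factors.

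The start of the coding sequence is the part of a tubulin mRNA that autoregulation depends on, since the nascent end of the protein is recognised by Ttc5 as it leaves the ribosome. Among beta isotypes the first 12 coding bases were ATGCGGGAAATC in Tubb4a, ATGAGGGAGATC in Tubb3 and Tubb4b, ATGCGCGAGATC in Tubb2a and ATGCGAGAGATC in Tubb2b. Of 12 tested genes that carry out this decay (Ttc5, Scaper and subunits of the CCR4-NOT complex that shortens the poly(A) tail) 2 were called higher in Zscan4f against control and 0 lower. The shares over all genes tested were 8.74% higher and 9.71% lower. Cnot6, a deadenylase, averaged 67.3 ± 0.746 TPM with Zscan4f, 58.8 ± 1.38 TPM with Zscan4f3A and 58.3 ± 3.12 TPM in control, and Rqcd1, a core subunit, averaged 37.4 ± 1.32 TPM with Zscan4f, 31.3 ± 1.24 TPM with Zscan4f3A and 31.6 ± 2.02 TPM in control (SD, n = 3 each). Cnot6 had a limma adjusted p of 0.016 and Rqcd1 one of 0.027 against control, and both calls were lost in some fits that left out 1 library, with an adjusted p of up to 0.053 for Cnot6 (without Zscan4f replicate 2) and 0.085 for Rqcd1 (without Zscan4f replicate 3).

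Promoters of the isotypes were read from RefSeq on GRCm38.p6, as the 250 bases before the annotated start, which were listed for 8 of the 10 genes. In 5 of the 8 the window reached into the gene as the deposited files give it. The other 3 are shown because they lie wholly before their genes. They belong to Tubb4b and Tuba1c, at 0.30, and Tubb2a, at 0.16 in log2 against control, and differences between isotypes were not tested. Capitals mark matches on either strand to 4 motifs. The CCAAT box was searched by its own letters, the GC box as GGGCGG, the TATA box as TATAAA and a core of the motif bound by Zscan4 as TGCACAC.
Tubb4b, chr2:25224703-25224952, minus strand: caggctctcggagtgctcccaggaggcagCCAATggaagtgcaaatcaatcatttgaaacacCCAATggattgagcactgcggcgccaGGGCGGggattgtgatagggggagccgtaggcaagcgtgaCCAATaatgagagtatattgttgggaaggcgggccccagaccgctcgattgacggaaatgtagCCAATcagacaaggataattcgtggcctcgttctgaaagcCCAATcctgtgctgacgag
Tuba1c, chr15:99029641-99029890, plus strand: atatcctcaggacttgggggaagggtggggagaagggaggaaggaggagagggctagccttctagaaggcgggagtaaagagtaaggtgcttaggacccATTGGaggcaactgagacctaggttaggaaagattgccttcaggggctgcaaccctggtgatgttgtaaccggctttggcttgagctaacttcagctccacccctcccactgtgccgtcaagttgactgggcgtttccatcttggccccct
Tubb2a, chr13:34078009-34078258, minus strand: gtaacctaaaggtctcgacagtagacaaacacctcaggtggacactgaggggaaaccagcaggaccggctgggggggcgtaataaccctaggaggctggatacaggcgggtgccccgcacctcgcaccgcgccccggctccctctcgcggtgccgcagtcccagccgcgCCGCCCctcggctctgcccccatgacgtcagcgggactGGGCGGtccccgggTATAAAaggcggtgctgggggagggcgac

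The Tubb4b window held 5 CCAAT matches and 1 GC box, that of Tuba1c 1 CCAAT match and that of Tubb2a 2 GC boxes and 1 TATAAA. Among 32851 mouse promoters read the same way, 33.8% held CCAAT, 32.7% GGGCGG, 12.4% TATAAA and 3.7% TGCACAC. Of the windows not shown, that of Tubb5 held 2 CCAAT matches and that of Tubb4a none of the 4 motifs (0), and TGCACAC was in 0 of the 8. These are matches of letters within 250 bases and nothing is drawn from them about any factor.

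Other genes of the microtubule system were taken from 10 lists, 153 genes tested of 174 found. In Zscan4f against control 15 were called higher and 11 lower, in Zscan4f3A against control 0, and in Zscan4f against Zscan4f3A 17 higher and 10 lower, by limma with adjusted p under 0.05. Over all genes the shares called were 8.74% higher and 9.71% lower against control and 7.48% higher and 7.64% lower against Zscan4f3A, so these counts were near those of genes at large. At an unadjusted p under 0.05 there were 11 of the 153 in Zscan4f3A against control, beside 1389 of 15837 genes in all. Their median log2 difference was 0.0039 in Zscan4f against control and 0.0067 in Zscan4f against Zscan4f3A. Of the 26 genes called against control, 15 were called in every fit that left out 1 library, and of the 27 called against Zscan4f3A also 15.

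**Figure D4:**
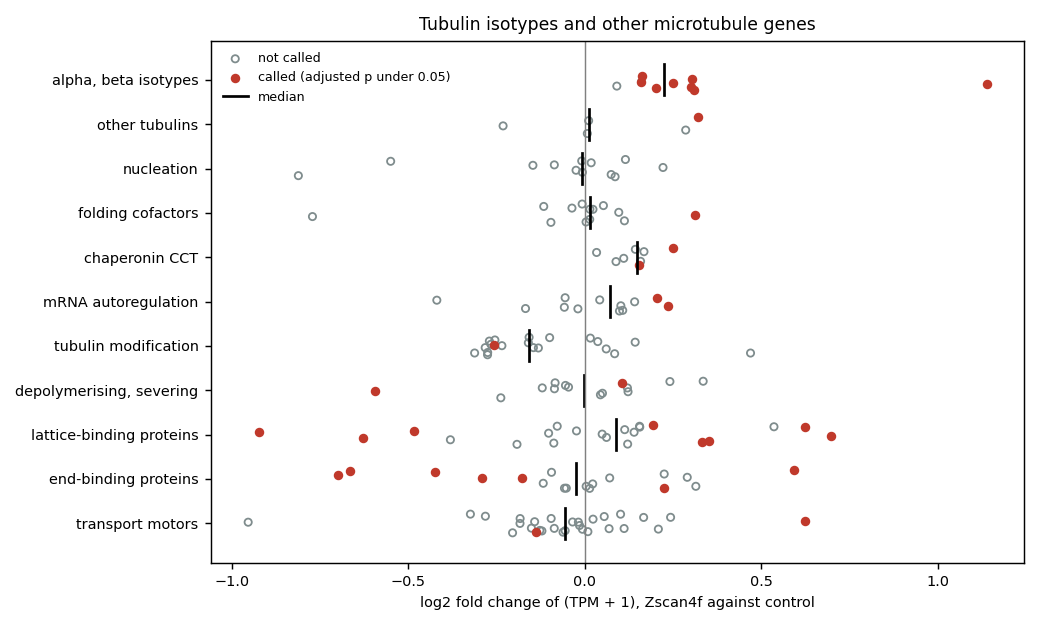
Log2 difference of (TPM + 1) in Zscan4f against control for the 10 isotypes (top row) and the tested genes of 10 further lists; red points are called at an adjusted p under 0.05, open points are not, and black bars are medians. The isotypes lie between 0.09 and 1.14, while the other lists straddle 0 apart from the chaperonin subunits, which lie between 0.03 and 0.25.

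Of the other tubulins only gamma tubulin Tubg1, which nucleates microtubules at the centrosome, was called. It had 57.5, 54.6 and 57.5 TPM with Zscan4f, 50.8, 48.96 and 48.0 TPM with Zscan4f3A and 46.3, 44.1 and 44.8 TPM in control. Its log2 difference was 0.32 (SE 0.04, limma adjusted p = 0.0012) against control and 0.20 (SE 0.04, adjusted p = 0.018) against Zscan4f3A, and the call against Zscan4f3A was lost in 4 of the 9 fits that left out a library (adjusted p up to 0.068, without Zscan4f replicate 3). Tubg2, a second gamma tubulin, averaged 13.9 TPM with Zscan4f and 13.8 TPM in control, delta tubulin Tubd1 9.03 TPM with Zscan4f and 8.95 TPM in control, and epsilon tubulin Tube1 1.78 TPM with Zscan4f and 2.25 TPM in control, none of them called. Tuba4a, an alpha isotype outside the 10 genes, varied between replicates, with 8.07, 7.93 and 7.60 TPM in Zscan4f, 12.8, 9.49 and 14.2 TPM in Zscan4f3A and 4.98, 4.99 and 9.72 TPM in control, and was not called. Tubb1, Tuba8, Tuba3a, Tuba3b and Tubal3 did not pass the filter. None of 12 nucleation genes, such as the gamma-tubulin ring proteins, was called by limma (0 of 12) in any of the 3 comparisons, while 3 had an unadjusted p under 0.05 in Zscan4f against control, 0 in Zscan4f3A against control and 1 in Zscan4f against Zscan4f3A. Of all genes tested 18.5%, 0.0316% and 15.1% were called in these comparisons, in the same order.

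Folding of new tubulin requires prefoldin, the chaperonin CCT and a set of cofactors. All 8 tested CCT subunits had log2 differences above 0 in Zscan4f against control, with a median of 0.15, beside a median of -0.0029 over all genes. The share of all genes above 0 was not computed, so nothing is read from that count. Of these 2 were called higher and 0 lower, beside 8.74% and 9.71% of all genes. Cct3 averaged 243 ± 5.02 TPM with Zscan4f, 205 ± 5.51 TPM with Zscan4f3A and 204 ± 3.71 TPM in control (SD, n = 3 each), a log2 difference of 0.25 against control (SE 0.03, limma adjusted p = 0.0012). Cct6a averaged 326 ± 0.812 TPM with Zscan4f, 291 ± 4.66 TPM with Zscan4f3A and 293 ± 14.2 TPM in control (limma adjusted p = 0.021 against control, up to 0.074 without control replicate 1). Against Zscan4f3A 3 CCT subunits were called higher, beside 7.48% of all genes. Besides Cct3 and Cct6a these included Cct2, at 365 ± 8.12 TPM with Zscan4f and 318 ± 16.4 TPM with Zscan4f3A (limma adjusted p = 0.016, up to 0.059 without Zscan4f replicate 2). Among 13 prefoldin subunits and cofactors Pfdn1 was called, at 149 ± 3.67 TPM with Zscan4f, 121 ± 7.24 TPM with Zscan4f3A and 120 ± 4.64 TPM in control (limma log2 difference 0.31, SE 0.05, adjusted p = 0.0033 against control).

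Of 22 tested proteins that bind the microtubule lattice, 5 were called higher and 3 lower in Zscan4f against control, beside 8.74% and 9.71% of all genes. Map1a, a microtubule-associated protein best known in neurons, fell to 9.84, 9.67 and 9.30 TPM with Zscan4f, against 15.7, 16.2 and 16.8 TPM with Zscan4f3A and 19.4, 19.5 and 18.3 TPM in control, a log2 difference of -0.92 against control (SE 0.06, limma adjusted p = 2.1e-05). Dclk1, a doublecortin-like kinase, fell by 0.63 on the log2 scale and Eml1 by 0.48, while Mtus1 rose by 0.35. The others were Tppp3, Dcx, Map1b and Eml2, higher with Zscan4f, named here after their values were seen. Their calls against control were lost in at least 1 fit that left out a library, apart from that of Map1b, and Eml2 was not called in any of the 9 such fits.

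End-binding proteins, which track or cap the ends of microtubules, had 2 called higher and 5 lower among 18 tested, beside the same 8.74% and 9.71% of all genes. Nav3 averaged 15.1 ± 0.498 TPM with Zscan4f, 22.6 ± 1.80 TPM with Zscan4f3A and 25.1 ± 1.36 TPM in control (SD, n = 3 each), a log2 difference of -0.70 against control (SE 0.07, limma adjusted p = 2.8e-04). Clip3 fell by 0.66 and Dctn1, the large dynactin subunit, by 0.18 on the log2 scale, and Nav2 rose by 0.59. Mapre3 and Clip2, lower, and Clip4, higher, were the others called, named after their values were seen. The calls of Clip2 (adjusted p up to 0.063 by limma) and Clip4 (up to 0.056) against control were each lost in 3 of the 9 fits that left out a library. Of 29 transport motor genes, the dynein light chain Dynlt1b rose to 110, 117 and 119 TPM with Zscan4f, against 73.5, 75.1 and 70.5 TPM with Zscan4f3A and 68.6, 80.0 and 74.9 TPM in control (log2 difference 0.62, SE 0.06, limma adjusted p = 2.2e-04), and the kinesin Kif1c fell by 0.14 on the log2 scale.

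Genes that shorten or cut microtubules gave 1 call in each direction among 14, beside 8.74% higher and 9.71% lower over all genes. Stmn2, a stathmin that binds tubulin dimers, averaged 599.7 ± 6.61 TPM with Zscan4f, 549.5 ± 10.4 TPM with Zscan4f3A and 557 ± 3.09 TPM in control (SD, n = 3 each). Its log2 difference against control was 0.11 (SE 0.03, limma adjusted p = 0.021) and its adjusted p reached 0.074 without Zscan4f replicate 1. The severing enzyme Fign fell by 0.59 on the log2 scale at levels of 0.628 TPM with Zscan4f and 1.46 TPM in control (limma adjusted p = 0.021, up to 0.068 without Zscan4f replicate 2). Its mean with Zscan4f lay below the 1 TPM of the filter, so it could not have passed through those libraries alone. The filter thus favours a lower call for Fign, and nothing further is read from it. Of 20 modifying enzymes, 6 had log2 differences above 0 in Zscan4f against control, and the median was -0.16. Among them 0 were called higher and 1 lower. The latter was Agtpbp1, a deglutamylase, which fell by 0.26 (limma adjusted p = 0.033, up to 0.11 without control replicate 1). Ttll3, a glycylase, had a limma adjusted p of 0.057 against control and was called against Zscan4f3A (log2 difference -0.49, adjusted p = 0.0040), and the difference between the 2 comparisons was not tested.

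Several isotypes mark other cell types, so markers of those types were read beside them. The 12 neuronal markers summed to 767 to 787 TPM with Zscan4f, 785 to 812 TPM with Zscan4f3A and 807 to 824 TPM in control. Most of this sum came from Stmn2, itself called higher with Zscan4f as given above. A mean below 1 TPM was found for 5 of the 12, and Rbfox3, Elavl3 and Elavl4 were at most 0.358 TPM in every library. Of the 8 neuronal markers tested, however, 4 were called higher and 1 lower in Zscan4f against control, with a median log2 difference of 0.31. Over all genes tested, 8.74% were called higher and 9.71% lower in that comparison. The abundant Gap43, a growth cone protein, was the marker called lower, at 109 ± 4.96 TPM with Zscan4f, against 193 ± 2.65 TPM with Zscan4f3A and 196 ± 6.97 TPM in control (SD, n = 3 each). The 8 oligodendrocyte markers summed to 22.2 to 24.3 TPM with Zscan4f, 20.6 to 23.1 TPM with Zscan4f3A and 19.2 to 23.3 TPM in control, with Olig1 and Olig2 at 0 in all 9 libraries. The 8 neural progenitor markers summed to 106 to 113 TPM with Zscan4f, 54.2 to 56.3 TPM with Zscan4f3A and 48.3 to 52.0 TPM in control, mostly from Nes, which encodes the intermediate filament nestin, with Sox1 and Pax6 at most 0.732 TPM. Of the 4 progenitor markers tested, 3 were called higher and 0 lower in Zscan4f against control, with a median log2 difference of 0.72. The 12 epithelial markers summed to 318 to 323 TPM with Zscan4f, 148 to 154 TPM with Zscan4f3A and 134 to 138 TPM in control. Of the 9 epithelial markers tested, 7 were called higher and 1 lower in Zscan4f against control, with a median log2 difference of 0.92. The endothelial sum was 60.1 to 63.9 TPM with Zscan4f, 45.5 to 49.9 TPM with Zscan4f3A and 46.4 to 48.4 TPM in control, the macrophage sum 26.2 to 27.7 TPM with Zscan4f, 18.4 to 20.6 TPM with Zscan4f3A and 18.7 to 21.6 TPM in control, and the skeletal muscle sum 26.9 to 30.03 TPM with Zscan4f, 21.9 to 25.0 TPM with Zscan4f3A and 18.9 to 22.1 TPM in control. The markers of multiciliated cells, in whose cilia Tubb4b is abundant, summed to 4.61 to 5.73 TPM with Zscan4f, 6.97 to 8.68 TPM with Zscan4f3A and 6.90 to 8.20 TPM in control. Single markers could differ from their sum. Of 3 endothelial markers tested, 2 were called higher and 1 lower in Zscan4f against control, with log2 differences down to -1.87. Of 4 macrophage markers tested, 1 was called higher and 1 lower. Of 2 skeletal muscle markers tested, 1 was called higher and 0 lower, and 6 of the 8 had a mean below 1 TPM. The progenitor, epithelial, endothelial, macrophage and skeletal muscle sums were higher with Zscan4f without overlap, as the tubulin levels were, and the multiciliated sum was lower. The part of any of these in the tubulin levels was not tested. In bulk RNA a change in the share of cells of a type and in RNA per cell cannot be told apart.

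Genes with the most similar profile were sought for the alpha and the beta isotype with the largest F statistic over the 3 groups, among 11522 other genes with a mean of at least 5 TPM. Likeness was the root mean square difference of centred log2(TPM + 1) over 9 libraries. Closest to Tuba1a were Cd9 at 0.039, Psmd2 at 0.041 and Coasy at 0.043, beside an SD of 0.17 for Tuba1a itself. Cd9 had 1691, 1699 and 1659 TPM with Zscan4f, 1388, 1361 and 1231 TPM with Zscan4f3A and 1404, 1418 and 1382 TPM in control, with its lowest value in Zscan4f3A replicate 3 as for Tuba1a. Closest to Tubb4a were Krt17 at 0.11, Itgb4 at 0.11 and Cd34 at 0.12, beside an SD of 0.57 for Tubb4a. Krt17, a keratin of stratified epithelium, averaged 12.9 TPM with Zscan4f, 6.31 TPM with Zscan4f3A and 5.27 TPM in control. The nearest isotype to Tubb4a was Tubb4b, at 0.42. The 3 genes were the closest of 11522 while the isotypes are few, and the measure also grows with unlike sizes of change. Nothing is therefore read from the larger distance of Tubb4b.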

How the data were processed

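Libraries were grouped by their titles, 3 per group. Reads were aligned with HISAT2 2.1.0 and quantified with StringTie, per the submitters' processing notes, which name no StringTie version. The TPM values used for levels and tests were made by the authors and deposited per gene. The deposited FPKM values served as an alternative, and the coverage deposited by the authors gave, with FPKM, the estimate of depth. IDs with more than 1 entry (15) were summed. The members and all gene lists were chosen with earlier results of these data known. Genes with at least 1 TPM in at least 3 libraries (15837) were fitted as log2(TPM + 1) with limma 3.58.1 in R 4.3.3 (group means of 9 libraries, trended prior, two-sided), and p-values were adjusted over all of them. Fold changes on this scale understate those of low genes. Tested on data simulated for Zscan4f against control (15837 genes, changes placed among those above a mean of 5 TPM), the fit recovered 66.3% of changes of 0.5 and 89.8% of changes of 1 on the log2 scale, with 7 false calls in each case. Smaller changes, the size seen for every isotype but Tubb4a, were not simulated, so recovery at that size is unknown.

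Named genes were the 10 isotypes, every other tubulin tested, and per list up to 4 with the smallest p among those called against control and up to 2 among those called against Zscan4f3A. The 3 genes nearest in profile to the alpha and the beta isotype with the largest F were also named. Coordinates are on GRCm38, on which 97.7% of 54079 matched IDs had identical positions. Shared words, coding identity and motifs were computed with Python 3.11.15 and Biopython 1.88 on GENCODE M21 transcripts and RefSeq promoters. Same-numbered libraries did not deviate together (correlations across genes from -0.079 to 0.053), so numbers were not taken as pairs. Alternatives are given in the closing section.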

Additional observations from a re-analysis of the deposited data

Results flagged for a closer look

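The pseudogene Tubb4b-ps1, which is no isotype gene and enters none of the sums above, had 22.6 TPM in Zscan4f3A replicate 3, above the 4.70 to 5.10 TPM of the control libraries. It had 5.18, 5.42 and 5.93 TPM with Zscan4f and 6.38 and 4.98 TPM in the other Zscan4f3A libraries. Of the loci related to beta isotypes it was the most abundant, and Tubb4b itself had its lowest Zscan4f3A value, 236 TPM, in the same library. The part of depth in this was not tested.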

How the results depend on the processing

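In Zscan4f against control, 8 isotypes were called in the fit described, 5 with no filter, 5 with no trend and 5 to 9 when a library was left out. In Zscan4f against Zscan4f3A 7 were called, 4 with no trend and 4 to 8 when a library was left out. Of other microtubule genes, 27 were called in that comparison and 16 to 30 when a library was left out. The cause was not tested in any of these cases. No isotype changed its direction past the threshold, and the ratios of summed alpha and beta TPM moved by less than their SD with FPKM, median-of-ratios scaling, related loci added or a library left out. Library quality weights and the ratio settings were chosen after the data were seen. With the replicate block, Tubb2b (adjusted p = 0.069) and Tuba1c (0.061) were no longer called by limma against control, nor Tubb2b against Zscan4f3A (0.092), and calls over all genes numbered 2504 in Zscan4f against control (2922 without it), 1 in Zscan4f3A against control (5) and 1883 in Zscan4f against Zscan4f3A (2395); the replicate numbers share no stated source. The lack of counts limits what can be said of genes near 1 TPM.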
